A study of Homo sapiens with 12 samples.

Results

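The 10 genes described here encode proteases, protease inhibitors and a protease receptor (PLAUR) of the gut mucosa: PLAU, PLAUR, MMP7, PRSS1, PRSS3, SPINK1, SPINK4, PI3, SLPI and SERPINB1. They were taken by symbol from a table of 19128 gene symbols over 8 RNA-seq libraries, and their RefSeq transcripts were looked up in 4 further libraries. Where a symbol stood on several lines the line with the highest mean was to be used, but each of the 10 stood on 1 line. So mean FPKM, the value in that rule, decided nothing; the genes themselves were selected on their function with the FPKM differences of the second experiment known. Their counts are therefore a description, given beside those of all genes. The cells were HT-29, a human colorectal adenocarcinoma line grown in RPMI. TBZ stands for a mixture of 3 agents: 20 ng/mL of the cytokine TNFα, 2 µM of BV6, an antagonist of the IAP proteins, and 30 µM of the caspase blocker zVAD-fmk. Together they drive necroptosis, a lytic death executed by the pseudokinase MLKL. In the second experiment, MLKL knockdown cells made with lentivirus (shMLKL) and cells with an shRNA to GFP (shGFP) were each given TBZ for 5 h or DMSO, in 2 libraries per group. The first experiment had 1 library each of shMLKL cells after 12 h of TBZ, shMLKL cells under DMSO, parental cells without shRNA after 4 h of TBZ and parental cells under DMSO. Whether a line was 1 clone or a pool, and how long DMSO was applied, is not given in the sources used here. Separate cultures are not stated for the paired libraries of any group, so the p-values rest on a spread that may be technical.

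Urokinase, encoded by PLAU, is a secreted serine protease that binds its receptor PLAUR at the cell surface and turns plasminogen into plasmin. MMP7, or matrilysin, is a metalloproteinase of epithelial cells; it cleaves matrix proteins, cadherin and membrane-bound ligands. PRSS1 and PRSS3 encode cationic trypsinogen and mesotrypsinogen, and SPINK1 is the Kazal-type inhibitor that blocks trypsin activated too early in the pancreas. SPINK4 is a Kazal-family gene of goblet cells, PI3 (elafin) and SLPI are small inhibitors of neutrophil elastase, and SERPINB1 is an intracellular serpin that also inhibits neutrophil proteases. In an inflamed mucosa these proteins set how far proteolysis goes at the epithelial surface.

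The libraries of the second experiment had 9606 to 10047 genes at 1 FPKM (fragments per kilobase of transcript, scaled to the size of the library) or more. Only their relative depth could be estimated, at 82.9 to 100.0% of the deepest. Across genes, Pearson's r was 0.989 to 0.992 within groups. MLKL stood at 0.651 and 0.395 FPKM in shMLKL TBZ and 0.606 and 0.545 in shMLKL DMSO libraries, against 1.98 and 2.03 in shGFP TBZ and 3.95 and 3.89 in shGFP DMSO libraries. As marks of the cells present, 6 to 8 of 9 epithelial, 3 of 7 goblet cell, 1 of 5 Paneth cell, 0 of 9 pancreatic acinar, 1 to 2 of 8 leukocyte and 0 of 9 fibroblast and endothelial markers reached a group mean of 1 FPKM. The hindgut factor CDX2 reached at most 0.175 FPKM as a group mean. The keratins KRT8 and KRT18 were listed at 0 in 7 of 8 libraries and at 694 and 535 FPKM in shMLKL DMSO library 2, so a 0 in this table can be a failed estimate.

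FPKM is a level per transcript length, so the 10 genes can be ranked against each other. SERPINB1 and MMP7 were the most abundant and SPINK4 the least abundant in each of the 4 groups. In shMLKL cells under TBZ the means ran from 108.5 ± 4.42 FPKM for SERPINB1 and 92.6 ± 3.85 for MMP7, through PRSS3 at 60.3 ± 4.80 and PLAUR at 44.7 ± 0.407, to PI3 at 1.93 ± 1.66 (SD, n = 2). Under DMSO in the same line SERPINB1 was at 109.0 ± 0.403 FPKM and PI3 at 0.704 ± 0.519. In shGFP cells under TBZ MMP7 came first at 155 ± 6.65 FPKM, above SERPINB1 at 94.7 ± 2.61, and PI3 stood at 29.9 ± 3.18 FPKM, above SLPI. Under DMSO in shGFP cells SERPINB1 was first at 102.4 ± 0.295 FPKM, and PLAU, at 0.712 ± 0.0483 FPKM, lay just above SPINK4. Among the 10364 genes tested below, SERPINB1 lay at percentiles 95.8 to 96.5 in all groups and PLAU under DMSO in shGFP cells at percentile 1.71.

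**Figure D1:**
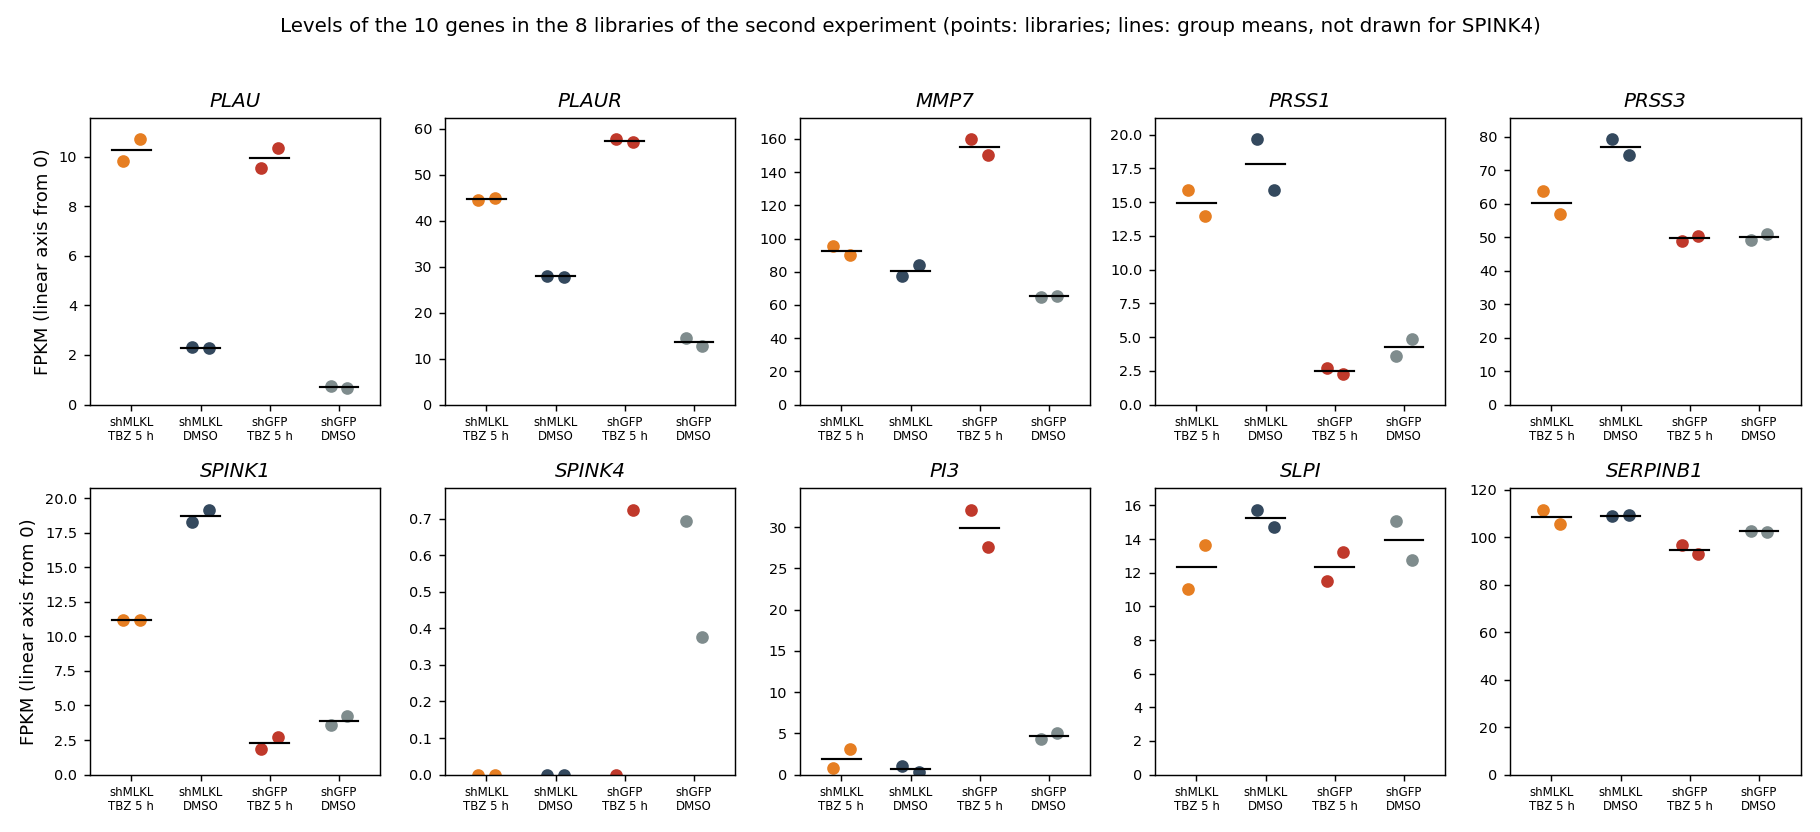
FPKM of each gene (linear axes from 0) in the 8 libraries of the second experiment, with 2 points per group and a line at the group mean. PLAU, PLAUR and MMP7 are higher under TBZ than under DMSO in both lines, PRSS1 and SPINK1 are higher in shMLKL than in shGFP cells, and PI3 stands apart in shGFP cells under TBZ.

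What TBZ did to these genes was asked in each line by TBZ against DMSO. PLAU, PLAUR and MMP7 rose in both lines, SPINK1 fell in both, and PI3 rose in shGFP cells. Tests were made on log2(FPKM + 1) with limma across 10364 genes that reached a mean of 1 FPKM in at least 1 group; this scale understates the change of low genes. Of the 10 genes 9 passed that filter and SPINK4 did not. PLAU was below 1 FPKM in shGFP DMSO and PI3 in shMLKL DMSO, so both passed through groups in which they were higher. At a Benjamini-Hochberg adjusted p under 0.05, 3 of the 9 rose and 2 fell in shMLKL cells, where 37.5% of all genes were called, 20.0% higher and 17.6% lower. In shGFP cells 4 rose and 3 fell, where 56.4% of all genes were called, 19.1% higher and 37.3% lower. The median log2 difference of the 9 genes was −0.01 in shMLKL and −0.01 in shGFP cells, beside −0.004 and −0.12 over all genes. Of all calls in shMLKL cells 53.2% were higher as deposited, 45.8% once library medians were made equal and 47.0% with quantile normalization. In shGFP cells these shares were 33.9, 44.5 and 40.0%. The effects of TBZ differed between the lines for 5 of the 9, all smaller or more negative in shMLKL cells, where 22.3% of all genes were called, 14.6% higher and 7.66% lower; these 5 were PLAUR, MMP7, PLAU, PI3 and PRSS3. Of all calls in that contrast 65.6% were higher as deposited, 38.95% once library medians were made equal and 50.8% with quantile normalization. Nothing rose in that contrast among the 9 genes by limma, also at an unadjusted p under 0.05.

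**Figure D2:**
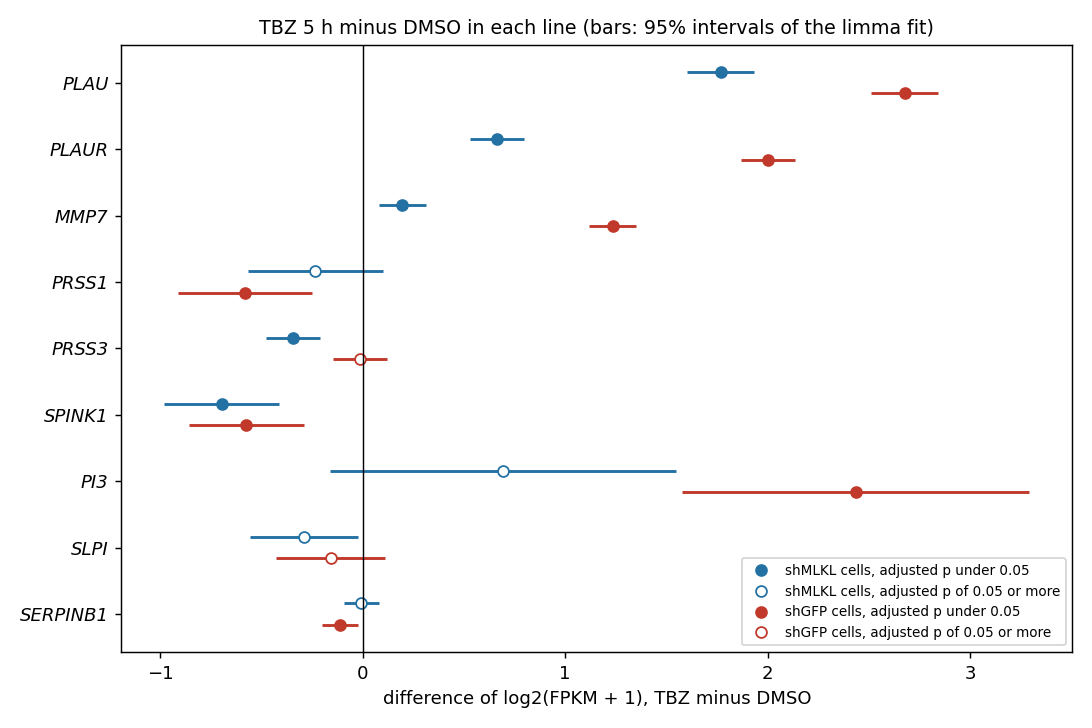
Differences of log2(FPKM + 1), TBZ minus DMSO, with 95% intervals from limma, for the 9 genes that passed the filter; shMLKL cells are above shGFP cells in each row, and filled points have an adjusted p under 0.05. PLAU, PLAUR, MMP7 and PI3 lie farther to the right in shGFP than in shMLKL cells.

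Both parts of the urokinase system rose. PLAU (hg19 chromosome 10, 75670862 to 75677258, forward strand) had 9.81 and 10.7 FPKM in shMLKL TBZ libraries, against 2.31 and 2.29 FPKM in shMLKL DMSO libraries. PLAU had 9.55 and 10.4 FPKM under TBZ in shGFP cells, against 0.746 and 0.678 FPKM under DMSO. The treated levels of the lines overlapped, while the DMSO levels lay apart, lower in shGFP cells. TBZ thus left PLAU 4.46-fold higher in shMLKL cells (log2 difference 1.77, SE 0.07, limma adjusted p = 1.96e-06) and 13.99-fold higher in shGFP cells (2.68, SE 0.07, adjusted p = 1.17e-07). The effects differed by −0.91 on the log2 scale (SE 0.10, limma adjusted p = 0.00104), and by −1.52 with a pseudocount of 0.1. C10orf55, a gene that overlaps PLAU in RefSeq, was listed at 0 in the table.

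PLAUR (chromosome 19, 44150247 to 44174498, reverse strand), the membrane receptor of urokinase, had 44.4 and 45.0 FPKM in shMLKL TBZ libraries, against 27.97 and 27.8 in shMLKL DMSO libraries. PLAUR had 57.6 and 57.0 FPKM under TBZ in shGFP cells, against 14.5 and 12.7 under DMSO. No groups overlapped, and the order from high to low was shGFP TBZ, shMLKL TBZ, shMLKL DMSO and shGFP DMSO. The rise was 1.604-fold in shMLKL cells (log2 difference 0.66, SE 0.06, limma adjusted p = 0.000111) and 4.22-fold in shGFP cells (2.00, SE 0.06, adjusted p = 1.71e-07). Between lines the effects differed by −1.34 (SE 0.08, limma adjusted p = 6.24e-05). Receptor and ligand did not rise in step: the ratio of PLAUR to PLAU was 4.53 and 4.21 in shMLKL TBZ libraries against 12.1 and 12.1 in shMLKL DMSO, and 6.04 and 5.50 in shGFP TBZ against 19.5 and 18.7 in shGFP DMSO libraries.

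MMP7 (chromosome 11, 102391239 to 102401478, reverse strand) had 95.3 and 89.9 FPKM in shMLKL TBZ libraries, against 77.7 and 83.8 in shMLKL DMSO libraries. MMP7 had 159.7 and 150.3 FPKM under TBZ in shGFP cells, against 65.1 and 65.4 under DMSO. The treated libraries lay above the untreated ones in both lines, narrowly in shMLKL cells. There MMP7 was 1.15-fold higher (log2 difference 0.20, SE 0.05, limma adjusted p = 0.0185), a call that was lost without shMLKL DMSO library 1 (0.14, adjusted p = 0.105) or shMLKL TBZ library 1 (0.15, adjusted p = 0.0977). In shGFP cells it was 2.38-fold higher (1.24, SE 0.05, limma adjusted p = 1.01e-06). The effects differed by −1.04 (SE 0.07, limma adjusted p = 0.000101). MMP7 was the one metalloproteinase of this set, and its level exceeded that of every other member in treated shGFP cells.

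The promoters of these 3 genes are shown because the genes rose together under TBZ. They are RefSeq sequences of GRCh38.p14, 250 bases up to the base before the annotated start, 5′ to 3′ on the gene's strand. Capitals mark matches, on either strand, to the AP-1 motif TGANTCA, the TCF core CTTTGA, the E-box CACCTG or the NF-kB consensus. In TGANTCA the letter N stood for any base. The coordinates are chr10:73910882-73911131 (forward) for the PLAU start nearest to NM_002658, chr19:43670170-43670419 (reverse) for PLAUR and chr11:102530748-102530997 (reverse) for MMP7.
PLAU promoter: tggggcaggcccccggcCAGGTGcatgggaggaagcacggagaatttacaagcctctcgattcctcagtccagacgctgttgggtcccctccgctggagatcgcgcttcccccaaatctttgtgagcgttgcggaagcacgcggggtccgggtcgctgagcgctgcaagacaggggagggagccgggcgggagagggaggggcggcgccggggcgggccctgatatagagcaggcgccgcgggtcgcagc
PLAUR promoter: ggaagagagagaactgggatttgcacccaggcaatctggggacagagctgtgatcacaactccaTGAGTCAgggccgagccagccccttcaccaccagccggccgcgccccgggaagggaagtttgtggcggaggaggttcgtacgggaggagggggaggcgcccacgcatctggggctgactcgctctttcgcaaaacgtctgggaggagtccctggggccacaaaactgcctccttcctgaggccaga
MMP7 promoter: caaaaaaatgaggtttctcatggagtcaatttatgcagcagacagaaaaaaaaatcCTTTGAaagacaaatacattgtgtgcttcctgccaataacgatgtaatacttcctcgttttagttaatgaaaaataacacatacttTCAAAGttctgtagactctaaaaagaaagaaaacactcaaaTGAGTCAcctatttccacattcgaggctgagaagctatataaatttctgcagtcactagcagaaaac
The PLAU window held 1 E-box match, starting at position −233. PLAUR held 1 AP-1 match at −186. MMP7 held 1 AP-1 match at −67 and matches of the TCF core at −194 and −108. The NF-kB consensus matched in none of them. TGANTCA, with any base at N, occurred in 6.57% of 35097 RefSeq windows of the same length. The TCF core occurred in 11.2%, the E-box in 17.5% and the NF-kB consensus in 5.2%. None of these motifs overlapped another here, and a match describes letters, not binding.

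Neither trypsinogen rose under TBZ: PRSS1 fell in shGFP and PRSS3 in shMLKL cells, and both were higher in shMLKL than in shGFP cells. PRSS1 (chromosome 7, 142457319 to 142460927, forward strand) had 15.9 and 13.96 FPKM in shMLKL TBZ and 19.6 and 15.9 in shMLKL DMSO libraries, values that nearly touched. PRSS1 had 2.71 and 2.25 FPKM under TBZ in shGFP cells, against 3.61 and 4.86 under DMSO. TBZ lowered PRSS1 in shGFP cells (log2 difference −0.58, SE 0.14, limma adjusted p = 0.0100), a call lost without shGFP DMSO library 2 (−0.41, adjusted p = 0.0659) or shGFP TBZ library 2 (−0.49, adjusted p = 0.0632). In shMLKL cells the difference was −0.23 (SE 0.14, limma adjusted p = 0.238), and the difference between the effects was 0.35 with a 95% interval of −0.12 to 0.82 (adjusted p = 0.245). The summed level of goblet cell markers had the same order of groups as PRSS1. It was 135 to 149.9 FPKM in shMLKL TBZ and 163 to 182 in shMLKL DMSO libraries. In shGFP cells it was 82.6 to 89.3 FPKM under TBZ and 113 to 114 under DMSO. Most of that sum was AGR2. SPDEF was instead lower in shMLKL cells, at 1.35 FPKM under TBZ and 3.77 under DMSO, against 1.97 and 6.14 in shGFP cells. MUC2 averaged 1.36 to 1.66 FPKM and TFF3 at most 0.172 FPKM. The part of goblet cells in the result was not tested. Fewer expressing cells and less RNA per cell cannot be told apart in bulk libraries.

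PRSS3 (chromosome 9, 33750464 to 33799229, forward strand) was the more abundant trypsinogen, with 63.7 and 56.9 FPKM in shMLKL TBZ libraries against 79.2 and 74.6 in shMLKL DMSO libraries. PRSS3 had 48.9 and 50.3 FPKM under TBZ in shGFP cells and 49.3 and 50.9 under DMSO. It fell by 0.35 on the log2 scale in shMLKL cells (SE 0.06, limma adjusted p = 0.00267), with no overlap, while the shGFP groups overlapped (−0.01, 95% interval −0.15 to 0.12, adjusted p = 0.874). In shGFP cells the sign turned to 0.05 with library medians set equal. The effects differed by −0.33 (SE 0.08, limma adjusted p = 0.0256), which was lost without the filter on low genes (adjusted p = 0.0514) and without any of 5 single libraries: either shGFP DMSO library (0.0855 and 0.0601), either shGFP TBZ library (0.0600 and 0.0767) or shMLKL DMSO library 1 (0.0742).

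PRSS1 has close relatives in sequence, and how the authors' counting split their reads is not stated. The transcripts of PRSS1 and PRSS3 were identical at 87.6% of aligned positions and those of PRSS1 and PRSS2 at 91.8%. For PRSS3 the transcript aligned was NM_002771, and the PRSS3 transcripts with a level in the first experiment were not aligned. The symbol PRSS2 was not among those of the second experiment, so PRSS2 had no value there. It was listed at 0 in the 4 libraries of the first experiment. The likeness extends to the promoters, shown here for PRSS1 (chr7:142749222-142749471, forward) and for the start of the PRSS3 transcript NM_002771 (chr9:33795311-33795560, forward), in the same build and with the same capitals.
PRSS1 promoter: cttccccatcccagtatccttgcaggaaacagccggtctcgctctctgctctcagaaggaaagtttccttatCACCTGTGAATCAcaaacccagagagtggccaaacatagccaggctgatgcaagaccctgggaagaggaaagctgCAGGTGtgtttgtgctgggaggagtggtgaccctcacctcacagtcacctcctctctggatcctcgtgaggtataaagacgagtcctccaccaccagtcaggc
PRSS3 promoter: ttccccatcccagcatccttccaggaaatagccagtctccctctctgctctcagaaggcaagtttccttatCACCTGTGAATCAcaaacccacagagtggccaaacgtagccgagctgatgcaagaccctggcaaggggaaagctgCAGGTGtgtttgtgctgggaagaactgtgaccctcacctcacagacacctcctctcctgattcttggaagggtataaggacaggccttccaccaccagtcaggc
They matched at 221 of 251 aligned positions (88%). Each held an E-box directly followed by a match to TGANTCA, at −178 and −172 in PRSS1 and at −179 and −173 in PRSS3. That match read TGAATCA in both, while those of PLAUR and MMP7 read TGAGTCA. Binding of AP-1 to TGAATCA was not tested. Another E-box lay at −103 in PRSS1 and −104 in PRSS3. NM_002771 itself was listed at 0 in the first experiment.

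SPINK1 (chromosome 5, 147204143 to 147218794, reverse strand), the trypsin inhibitor, was higher in shMLKL than in shGFP cells and fell under TBZ in both. It had 11.2 and 11.2 FPKM in shMLKL TBZ libraries, against 18.3 and 19.2 in shMLKL DMSO libraries. SPINK1 had 1.87 and 2.76 FPKM under TBZ in shGFP cells, against 3.602 and 4.21 under DMSO. TBZ lowered SPINK1 without overlap in both lines, by 0.70 on the log2 scale in shMLKL cells (SE 0.12, limma adjusted p = 0.00345) and by 0.58 in shGFP cells (SE 0.12, adjusted p = 0.00522; −0.38 without shGFP TBZ library 1). The difference of the effects was −0.12 with a 95% interval of −0.52 to 0.28 (limma adjusted p = 0.638). The ratio of SPINK1 to PRSS1 ran from 0.691 to 1.22 in the 8 libraries, and both of these ends were shGFP TBZ libraries. SPINK4 (chromosome 9, 33240196 to 33248565, forward strand) was listed at 0 in 5 of 8 libraries: in all 4 shMLKL libraries and in shGFP TBZ library 1. Its other values were 0.725 FPKM in shGFP TBZ library 2 and 0.692 and 0.376 FPKM in the shGFP DMSO libraries, so no change was tested.

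Of the elastase inhibitors, PI3 rose in shGFP cells and SLPI was called in no contrast. PI3 (chromosome 20, 43803540 to 43805185, forward strand) had 0.763 and 3.10 FPKM in shMLKL TBZ libraries, against 1.07 and 0.337 in shMLKL DMSO libraries, which overlapped. PI3 had 32.1 and 27.6 FPKM under TBZ in shGFP cells, against 4.34 and 5.06 under DMSO, a 6.35-fold higher mean (log2 difference 2.44, SE 0.37, limma adjusted p = 0.00103). The shMLKL difference was 0.69 (SE 0.37, limma adjusted p = 0.180); without shMLKL TBZ library 1 it was 1.30 (adjusted p = 0.0106), and without library 2 it was 0.08. The difference between the effects just passed (−1.74, SE 0.52, limma adjusted p = 0.0496). That call did not hold with 0.1 as pseudocount (−1.43, adjusted p = 0.288), with no filter on low genes (adjusted p = 0.1085), and without any single library except shMLKL TBZ library 2 (−2.06 to −1.13, adjusted p = 0.0581 to 0.139).

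SLPI (chromosome 20, 43880880 to 43883205, reverse strand) had 11.1 and 13.7 FPKM in shMLKL TBZ and 15.8 and 14.75 in shMLKL DMSO libraries, which did not overlap. In shGFP cells, where the groups overlapped, it had 11.5 and 13.2 FPKM under TBZ and 15.1 and 12.8 under DMSO. No contrast called it with all libraries: the log2 difference was −0.29 in shMLKL cells (95% interval −0.56 to −0.02, limma adjusted p = 0.0861; −0.43 and 0.0384 without shMLKL TBZ library 2) and −0.16 in shGFP cells (−0.43 to 0.11, adjusted p = 0.268). The ratio of PI3 to SLPI was 0.0690 and 0.227 in shMLKL TBZ libraries against 0.0679 and 0.0229 in shMLKL DMSO libraries. In shGFP cells it was 2.80 and 2.09 under TBZ against 0.288 and 0.397 under DMSO, so PI3 exceeded SLPI only in treated shGFP libraries.

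SERPINB1 (chromosome 6, 2832566 to 2842283, reverse strand), the intracellular inhibitor, differed by at most 0.11 on the log2 scale between TBZ and DMSO. It had 112 and 105 FPKM in shMLKL TBZ and 109 and 109 in shMLKL DMSO libraries, which overlapped. SERPINB1 had 96.6 and 92.9 FPKM under TBZ in shGFP cells, against 103 and 102 under DMSO. That difference was called (log2 −0.11, SE 0.04, limma adjusted p = 0.0375) but was −0.05 with library medians set equal (adjusted p = 0.330), −0.22 with quantile normalization, and was lost with no filter on low genes (adjusted p = 0.0501) and without either shGFP DMSO library, shGFP TBZ library 2 or either shMLKL DMSO library (adjusted p = 0.0547 to 0.171). In shMLKL cells the difference was −0.01 (95% interval −0.09 to 0.08, limma adjusted p = 0.906).

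How the knockdown line differed from the control line was asked under each treatment. PRSS1 and SPINK1 were several times higher in shMLKL cells, and PI3 was lower. Under TBZ 4 of the 9 genes were higher and 3 lower in shMLKL cells, where 51.7% of all genes were called, 20.7% higher and 31.0% lower. Under DMSO 6 were higher and 1 lower, where 63.1% were called, 18.3% higher and 44.8% lower. The median of the 9 genes was 0.04 under TBZ and 0.61 under DMSO, beside −0.06 and −0.16 over all genes. Of all calls under TBZ 40.0% were higher as deposited, 54.6% once library medians were made equal and 52.1% with quantile normalization. Under DMSO these shares were 29.04, 53.1 and 47.5%. Each of these contrasts shares its libraries with the TBZ contrasts, so the values are set side by side and not counted as further support.

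PRSS1 was 6.01-fold higher in shMLKL than in shGFP cells under TBZ (log2 difference 2.19, SE 0.14, limma adjusted p = 2.27e-05) and 4.20-fold higher under DMSO (1.85, SE 0.14, adjusted p = 3.40e-05). SPINK1 was 4.83-fold higher under TBZ (1.89, SE 0.12, limma adjusted p = 2.201e-05) and 4.80-fold higher under DMSO (2.01, SE 0.12, adjusted p = 1.13e-05). PRSS3 was higher by 0.27 under TBZ (limma adjusted p = 0.00560) and by 0.61 under DMSO (adjusted p = 8.61e-05). PI3 was 15.5-fold lower in shMLKL than in shGFP cells under TBZ (log2 difference −3.52, SE 0.37, limma adjusted p = 0.000210; −4.13 without shMLKL TBZ library 2 and −2.91 without library 1) and 6.68-fold lower under DMSO (−1.77, SE 0.37, adjusted p = 0.00393; −2.74 with a pseudocount of 0.1, −2.09 without shMLKL DMSO library 1 and −1.46 without library 2). The acinar markers of the pancreas, where PRSS1 and SPINK1 are best known, summed to 0.299 to 0.424 FPKM in shMLKL TBZ, 0.0537 to 0.0989 in shMLKL DMSO, 0.342 to 0.431 in shGFP TBZ and 0.147 to 0.236 in shGFP DMSO libraries.

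For the urokinase genes and MMP7 the lines stood differently under each treatment. Under DMSO all 3 were higher in shMLKL cells, by 0.95 for PLAU (limma adjusted p = 2.94e-05; 1.57 with a pseudocount of 0.1), 0.99 for PLAUR (adjusted p = 9.83e-06) and 0.30 for MMP7 (adjusted p = 0.00138; 0.47 once library medians were made equal). Under TBZ PLAUR was lower in shMLKL cells by 0.35 (−0.35, limma adjusted p = 0.00177) and MMP7 by 0.74 (−0.74, adjusted p = 2.95e-05), while PLAU differed by 0.04 (95% interval −0.13 to 0.20, adjusted p = 0.671). SLPI was not called under TBZ (−0.003, 95% interval −0.27 to 0.26, limma adjusted p = 0.987) or DMSO (0.13, −0.14 to 0.40, adjusted p = 0.359). SERPINB1 was higher by 0.19 under TBZ (limma adjusted p = 0.00398). Under DMSO it differed by 0.09 (adjusted p = 0.0707), by 0.26 with library medians set equal (adjusted p = 0.000736) and by −0.02 with quantile normalization.

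**Figure D3:**
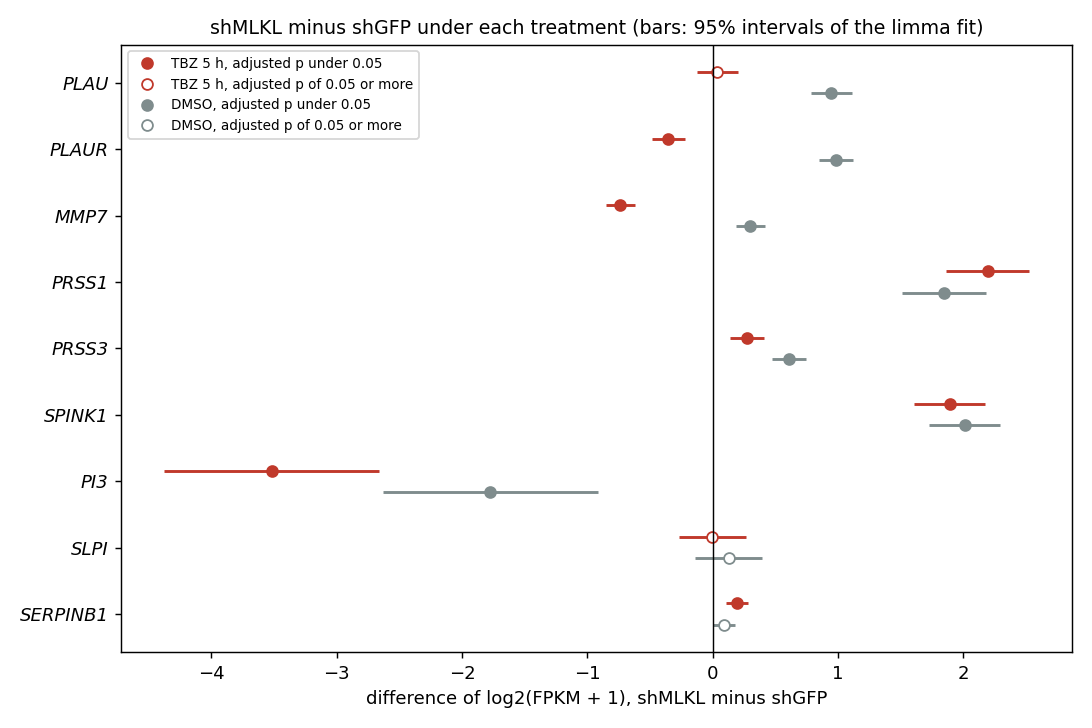
Differences of log2(FPKM + 1), shMLKL minus shGFP, with 95% intervals from limma, for the 9 genes that passed the filter; TBZ is above DMSO in each row, and filled points have an adjusted p under 0.05. PRSS1 and SPINK1 lie near 2 under both treatments, PI3 lies left of 0 under both, and PLAUR and MMP7 lie on opposite sides of 0.

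The first experiment gave a single library per group, so its values carry no replicate check and no test. They are sums over the RefSeq transcripts of a gene, with the intervals of the authors' files summed. Levels of the experiments come from separately made files, so no fold is taken between levels of different experiments. The median log2 level of 8084 genes stood off by −0.15 in the parental TBZ and 0.11 in the shMLKL DMSO library. MLKL stood at 2.15 FPKM (interval 1.82 to 2.501) in shMLKL TBZ 12 h and 0.854 (0.611 to 1.13) in shMLKL DMSO, and at 6.16 (5.57 to 6.77) in parental TBZ 4 h and 6.31 (5.65 to 7.00) in parental DMSO libraries. It was thus lower in both knockdown libraries than in parental ones, and higher at 12 h of TBZ than under DMSO. MMP7 stood at 634 FPKM (interval 607 to 661) in shMLKL cells after 12 h of TBZ and 131 (124 to 137) in shMLKL cells under DMSO. In parental cells it stood at 366 FPKM (349.7 to 383) after 4 h of TBZ and 89.8 (84.9 to 94.8) under DMSO. MMP7 in treated shMLKL cells was thus 4.85-fold its DMSO level at 12 h, where 5 h of TBZ in the second experiment gave a ratio of 1.15; time, culture and processing differ between these values and cannot be told apart.

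PLAU stood at 7.77 FPKM (7.11 to 8.45) in shMLKL TBZ 12 h and 2.41 (2.06 to 2.78) in shMLKL DMSO, and at 20.2 (18.9 to 21.5) in parental TBZ 4 h and 2.47 (2.10 to 2.87) in parental DMSO libraries. PLAUR stood at 119 FPKM (112 to 125) in shMLKL TBZ 12 h and 33.3 (30.5 to 36.2) in shMLKL DMSO, and at 442 (423 to 461) in parental TBZ 4 h and 62.4 (58.1 to 66.8) in parental DMSO libraries. For both genes the intervals of treated and untreated libraries lay apart in each line. Under DMSO, PLAUR was lower in shMLKL than in parental cells with intervals apart, and the PLAU intervals of the lines overlapped. MMP7 was higher there in shMLKL cells, with intervals apart. In the second experiment all of these were higher in shMLKL than in shGFP cells under DMSO. The control line differs between the experiments, and the cause of the unlike order was not tested. PI3 stood at 5.46 FPKM (4.28 to 6.63) in shMLKL TBZ 12 h and 0.130 (0 to 0.313) in shMLKL DMSO, and at 5.88 (4.63 to 7.13) in parental TBZ 4 h and 0.433 (0.0795 to 0.787) in parental DMSO libraries. In shMLKL cells the intervals of PI3 lay apart, and its DMSO interval reached 0. Such an interval holds no spread between replicates. It is thus another measure than the overlap of PI3 libraries at 5 h in the second experiment. The DMSO intervals of PI3 overlapped between shMLKL and parental cells.

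PRSS1 stood at 40.4 FPKM (37.4 to 43.3) in shMLKL TBZ 12 h and 75.95 (71.3 to 80.6) in shMLKL DMSO, and at 25.9 (23.5 to 28.2) in parental TBZ 4 h and 35.8 (32.9 to 38.8) in parental DMSO libraries. SPINK1 stood at 34.6 FPKM (31.6 to 37.7) in shMLKL TBZ 12 h and 30.9 (27.95 to 33.9) in shMLKL DMSO, which overlapped, and at 20.3 (18.0 to 22.7) in parental TBZ 4 h and 26.5 (23.6 to 29.3) in parental DMSO libraries, which did not. Under DMSO, PRSS1 was higher in shMLKL than in parental cells with intervals apart, while the SPINK1 intervals of the lines overlapped. In the second experiment both were higher in shMLKL than in shGFP cells. SLPI lay between 18.6 and 22.6 FPKM and SERPINB1 between 77.8 and 87.9 FPKM in the 4 libraries, with overlapping intervals within each line. SERPINB1 also had an assembled transcript without RefSeq name at its locus, with none in shMLKL TBZ, 63.7 FPKM in shMLKL DMSO, 152 in parental TBZ and 49.3 in parental DMSO libraries. With it added, an alternative chosen after seeing the data, the log2 differences of SERPINB1 were −0.73 in shMLKL and 0.90 in parental cells, in place of 0.08 and 0.12. SPINK4 was listed at 0 in shMLKL TBZ and stood at 0.366 in shMLKL DMSO, 0.875 in parental TBZ and 0.406 FPKM in parental DMSO libraries.

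**Figure D4:**
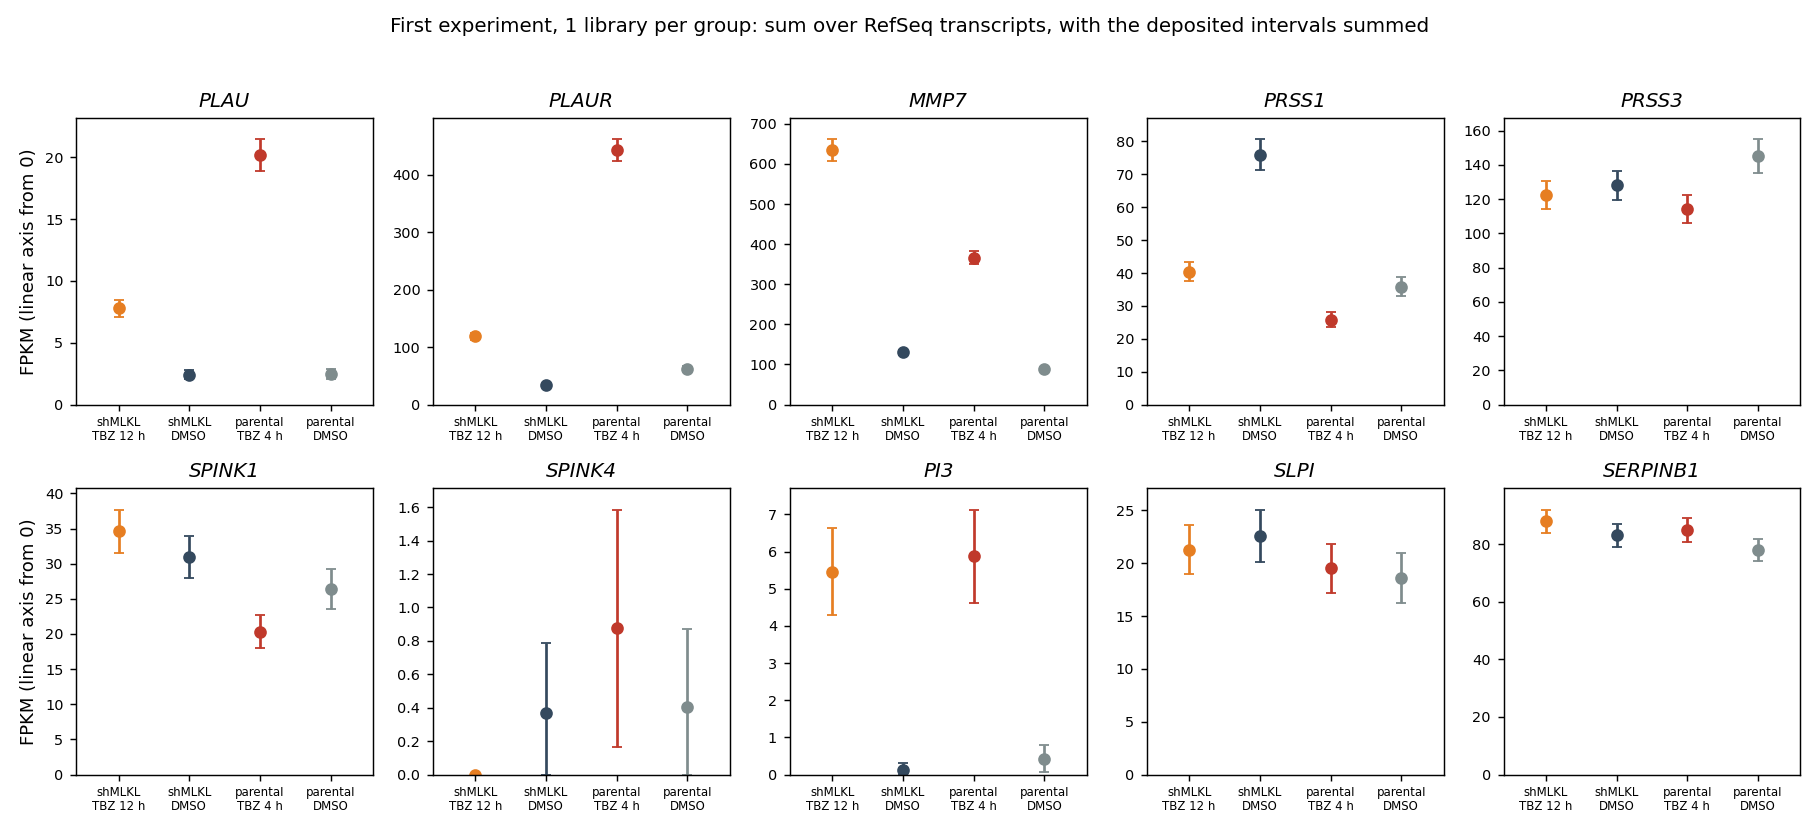
FPKM summed over RefSeq transcripts (linear axes from 0) in the 4 libraries of the first experiment, with the deposited intervals summed as bars and no replicates. PLAU, PLAUR, MMP7 and PI3 are above their DMSO libraries in both lines, and PRSS1 is below.

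The transcript files separate isoforms, which the gene table does not. PLAUR was split between NM_002659 and NM_001005376, which differ at the 3′ end of the gene (at 44152723 and 44150247 in hg19); NM_002659 encodes the receptor anchored in the membrane. NM_001005376 made up 25.5% of PLAUR in shMLKL TBZ and 22.8% in shMLKL DMSO libraries, and was listed at 0 in parental TBZ against 20.3% in parental DMSO. That 0 comes from a single library and may be a failed estimate. PRSS3 was made of NM_001197098 and NM_007343, which begin at 33750819 and 33750464. NM_002771, which begins at 33795559, was listed at 0 in all 4 libraries. NM_001197098 made up 78.8% of PRSS3 in shMLKL TBZ and 84.4% in shMLKL DMSO, and 75.6% in parental TBZ against 83.7% in parental DMSO libraries.

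Total PRSS3 stood at 122 FPKM (114 to 130.4) in shMLKL TBZ and 128 (119.5 to 137) in shMLKL DMSO, and at 114 (106 to 122) in parental TBZ and 145 (135 to 155) in parental DMSO libraries. The DMSO intervals of shMLKL and parental cells overlapped. An assembled transcript of 47.1 FPKM overlapped PRSS3 in the parental TBZ library alone. With it added, an alternative chosen after seeing the data, the parental log2 difference was 0.15 in place of −0.34. With library medians made equal it was −0.15, and the parental differences of SPINK1 and PRSS1 were −0.17 and −0.26, in place of −0.37 and −0.46.

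**Figure D5:**
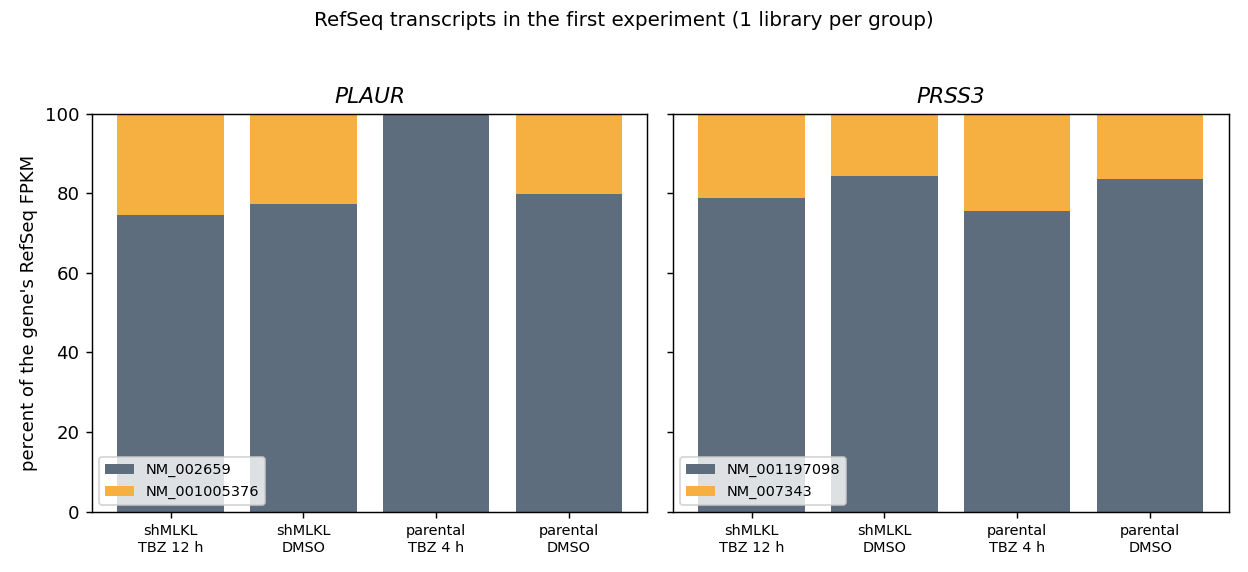
Share of each RefSeq transcript in the FPKM of PLAUR and PRSS3, in percent, in the 4 libraries of the first experiment. NM_001005376 of PLAUR is listed at 0 in the parental TBZ library, and NM_001197098 makes up most of PRSS3 in all libraries.

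The proteases and inhibitors around these genes were read from 7 lists that leave the 10 genes out. In the plasminogen system 9 of 14 genes passed the filter. In shMLKL cells 3 rose and 2 fell, and in shGFP cells 4 rose and 3 fell. Over all genes 20.0% were called higher and 17.6% lower in shMLKL cells, and 19.1% and 37.3% in shGFP cells. The median log2 difference of the list was −0.01 in shMLKL and 0.005 in shGFP cells, beside −0.004 and −0.12 over all genes. F3, tissue factor, which starts coagulation, rose by 2.72 in shGFP cells (limma adjusted p = 1.13e-07), with effects that differed by −0.88 (adjusted p = 0.00117). SERPINE2, protease nexin 1, rose by 1.00 in shGFP cells (limma adjusted p = 6.71e-06).

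Of 16 other serpins, of clade A, clade B (that of SERPINB1) and further clades, 6 passed the filter. Among these 6, 5 rose and 1 fell in each line (median 0.65 in shMLKL and 1.26 in shGFP cells), beside 20.0% and 19.1% of all genes called higher. The 1 that fell, named here after its values were seen, was SERPINB6 (−0.17 in shMLKL and −0.37 in shGFP cells). SERPINA1, the secreted elastase inhibitor antitrypsin, averaged 44.2 ± 1.25 FPKM in shMLKL TBZ and 15.7 ± 0.556 in shMLKL DMSO, and 58.7 ± 2.94 in shGFP TBZ and 15.6 ± 0.275 in shGFP DMSO libraries (shGFP log2 difference 1.85, limma adjusted p = 1.13e-07). SERPINB9, the granzyme B inhibitor, and SERPINB8 rose by 2.01 and 1.89 in shGFP cells (limma adjusted p = 3.02e-06 and 9.22e-08), with effects that differed by −1.11 and −1.10 (adjusted p = 0.00206 and 5.76e-05). SERPINB9 averaged 9.07 FPKM in shMLKL TBZ and 4.38 in shMLKL DMSO, and 9.38 in shGFP TBZ and 1.58 in shGFP DMSO libraries. SERPINB8 averaged 45.7 FPKM in shMLKL TBZ and 26.0 in shMLKL DMSO, and 33.8 in shGFP TBZ and 8.43 in shGFP DMSO libraries. Under DMSO both were thus higher in shMLKL cells. Among Kazal, Kunitz and WAP inhibitors 6 of 14 passed the filter. Of these, 3 fell in each line, beside 17.6% of all genes called lower in shMLKL and 37.3% in shGFP cells. In neither line did any rise, also at an unadjusted p under 0.05 with limma. The list median was −0.13 in shMLKL and −0.09 in shGFP cells, the second above that of all genes, −0.12. SPINK5, a multidomain Kazal inhibitor of kallikreins, averaged 5.69 ± 0.282 FPKM in shMLKL TBZ and 7.31 ± 0.184 in shMLKL DMSO, and 4.08 ± 0.632 in shGFP TBZ and 11.01 ± 0.460 in shGFP DMSO libraries. It fell by 1.25 in shGFP cells (limma adjusted p = 2.05e-05), and the effects differed by 0.93 (adjusted p = 0.00245). TFPI and APP, which carry Kunitz domains, fell by 0.38 and 0.14 in shGFP cells (limma adjusted p = 0.000503 and 0.0125).

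Of 26 other serine proteases, 13 passed the filter, with 2 higher and 6 lower in shMLKL and 2 higher and 5 lower in shGFP cells (median −0.28 and −0.21, beside −0.004 and −0.12 over all genes); the share of all genes called lower was 17.6% in shMLKL and 37.3% in shGFP cells, where that of the list was about the same. Among those called was PRSS22, a tryptase of epithelia, at 19.8 ± 2.199 FPKM in shMLKL TBZ and 13.9 ± 0.962 in shMLKL DMSO, and 18.1 ± 1.24 in shGFP TBZ and 4.61 ± 0.161 in shGFP DMSO libraries. It rose by 1.77 in shGFP cells (SE 0.09, limma adjusted p = 2.61e-06), and the effects differed by −1.29 (adjusted p = 0.000478). PRSS8 (prostasin) and PRSS23 fell by 0.35 and 0.27 in shGFP cells (limma adjusted p = 0.0244 and 0.0401). Of 30 metalloproteinases, ADAMs and their inhibitors, 12 passed the filter, with 2 higher and 1 lower in shMLKL and 1 higher and 0 lower in shGFP cells (median −0.03 and −0.05); at an unadjusted p under 0.05 limma had 2 lower there. That 1 was ADAM17, the sheddase of TNF, which rose by 0.53 (limma adjusted p = 0.000111), with effects that differed by −0.30 (adjusted p = 0.0251). For the metalloproteinase inhibitor TIMP2 the effects differed by −0.64 (limma adjusted p = 0.00934). TIMP2 averaged 8.92 FPKM in shMLKL TBZ and 14.2 in shMLKL DMSO, and 3.70 in shGFP TBZ and 3.61 in shGFP DMSO libraries. It fell in shMLKL cells (−0.61, limma adjusted p = 0.000970) and was not called in shGFP cells (0.02, adjusted p = 0.826). Of the 18 cathepsins and cystatins 16 passed the filter, with 4 higher and 3 lower in shMLKL and 4 higher and 4 lower in shGFP cells (median 0.08 and 0.02). For this list and that of metalloproteinases, the shares of all genes called were 37.5% in shMLKL cells, 56.4% in shGFP cells and 22.3% in the difference of effects. The lysosomal proteases CTSS, CTSH and CTSD differed by 0.59, −0.43 and −0.39 in shGFP cells (limma adjusted p = 0.00145, 0.000120 and 0.000725), and 0 of this list were called by limma in the difference of effects (3 at an unadjusted p under 0.05).

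Of 14 receptors and substrates of these proteases 12 passed the filter, with 3 higher and 5 lower in shMLKL and 7 higher and 4 lower in shGFP cells (median 0.001 and 0.22); the effects differed for 7, 1 upward and 6 downward. Over all genes 37.5% were called in shMLKL cells, 56.4% in shGFP cells and 22.3% in the difference of effects. SDC4, a syndecan whose ectodomain is shed, averaged 433 ± 0.448 FPKM in shMLKL TBZ and 98.3 ± 2.99 in shMLKL DMSO, and 747 ± 40.8 in shGFP TBZ and 87.9 ± 3.59 in shGFP DMSO libraries (shGFP log2 difference 3.07, limma adjusted p = 1.23e-08). HBEGF, a shed ligand of the EGF receptor, averaged 9.80 ± 0.986 FPKM in shMLKL TBZ and 8.42 ± 0.554 in shMLKL DMSO, and 54.3 ± 2.84 in shGFP TBZ and 6.25 ± 0.0793 in shGFP DMSO libraries, and its effects differed by −2.74 (SE 0.11, limma adjusted p = 7.42e-06). For AREG, a related ligand, they differed by −1.06 (limma adjusted p = 0.000144). AREG averaged 250 FPKM in shMLKL TBZ and 239 in shMLKL DMSO, and 236 in shGFP TBZ and 108 in shGFP DMSO libraries. F2R, the thrombin receptor, fell by 1.72 in shGFP cells (limma adjusted p = 2.68e-06).

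The genes whose profile over the 8 libraries was most like that of each of the 9 were found by Pearson correlation of log2(FPKM + 1) among the 10364 genes. The libraries fall into 4 groups, so many genes reach high values, and the correlation is a description. PLAU was closest to HIVEP2 (0.999) and ELOVL7 (0.998), PLAUR to PHLDA2 (0.995) and FOXO1 (0.993), and MMP7 to IRS2 (0.994) and OSER1 (0.994). PRSS1 was closest to ATXN10 (0.995) and CCPG1 (0.995), SPINK1 to RALB (0.998) and ZNF185 (0.998), and PRSS3 to ITPKA (0.988) and MYL12B (0.987). PI3 was closest to BNIP2 (0.984) and PSTPIP2 (0.982) and SERPINB1 to FBXL14 (0.983) and ZSWIM8 (0.982). The number of genes above 0.95 was 254 for PLAU and 130 for PLAUR but 0 for SLPI, whose nearest genes were DOK7 (0.935) and HIVEP3 (0.920).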

How the data were processed

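Polyadenylated RNA was sequenced as 100 nt paired-end reads from stranded TruSeq libraries, per the labels' protocols. The tools named per the submitters' processing notes were Cufflinks 2.2.1, TopHat2 2.0.13, GATK and STAR 2.4.0f1, with the hg19 build; their roles are not given in the sources used here. The authors deposited 1 table of gene values for the 8 libraries of the second experiment, read as FPKM from its values, and Cufflinks transcript lists with FPKM and intervals for the 4 libraries of the first. No file held counts, so no count test or counting interval was made, and any further scaling by the authors is not stated.

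Genes reaching a group mean of 1 FPKM anywhere (10364) entered a limma fit (version 3.58.1, R 4.3.3) of log2(FPKM + 1) by group, with a trended prior, 4 residual and 3.46 prior degrees of freedom and 5 contrasts, two-sided, and Benjamini-Hochberg adjustment within a contrast. Simulated data for TBZ against DMSO in shGFP cells held 10364 genes, with 200 changed in each of 10 runs and spreads shuffled among genes. In them the limma fit recovered 72.4% of genes changed by 0.5 on the log2 scale and 94% of those changed by 1. The changed genes were drawn only from those above a set mean level, so these rates do not cover lower genes. In the data 56.4% of genes were called in that contrast, so these rates need not hold there. The members, lists and tests were chosen with earlier results of these data known. The named genes are the members, MLKL, from each list up to 3 genes with the largest change in shGFP cells among those called with at least 5 FPKM and up to 2 with the largest called difference of effects, and the 2 genes most like each member; 1 gene that the rule names is not reported here. CXCL8, the check of the response, averaged 218 ± 0.326 FPKM in shMLKL TBZ and 8.28 ± 3.31 in shMLKL DMSO, and 3358 ± 78.0 in shGFP TBZ and 16.4 ± 1.22 in shGFP DMSO libraries (SD, n = 2). Transcripts of the first experiment were matched by RefSeq accession. Promoters came from RefSeq, GRCh38.p14, which was not used for hg19 coordinates; 8 of the 10 genes matched that table. Transcript identities were computed with Biopython 1.88 on GENCODE transcripts. Alternatives were another pseudocount (0.1), no filter, 2 other scalings, summed lines, a replicate block and each library left out.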

Additional observations from a re-analysis of the deposited data

Results flagged for a closer look

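Responses that differed between the lines were marked where the difference of the TBZ effects itself passed limma's adjusted p of 0.05. On the log2(FPKM + 1) scale, shMLKL minus shGFP, these were PLAUR (−1.34), MMP7 (−1.04), PLAU (−0.91), PI3 (−1.74) and PRSS3 (−0.33). PLAUR, MMP7 and PLAU passed under each of the 6 other settings and with each of the 8 libraries left out. PI3 and PRSS3 did not; their values stand with the results and, for the replicate block, under the dependence on processing. With 2 libraries per group, no single library could be tested as standing apart.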

How the results depend on the processing

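The 5 contrasts called 5, 7, 5, 7 and 7 of the 9 genes, in the order shMLKL, shGFP, difference of effects, line under TBZ and line under DMSO. Leaving out 1 library gave 4 to 6, 5 to 7, 3 to 5, 7 to 7 and 7 to 8. The count for the difference of effects was 3 with no filter on low genes. Over all genes that contrast called 2306, and 1327 to 1683 with 1 library left out, which also leaves fewer samples. The replicate numbers share no stated culture, and deviations of same-numbered libraries correlated at −0.07 to 0.03 over 6 group pairs. With a replicate block the difference of effects called 4 of the 9 genes and 2062 of all, and PI3 was lost there (adjusted p = 0.0677), while no other call of a member changed.

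Signs turned, among tested values, for ones that were not called. PRSS3 in shGFP cells was 0.053 with medians equal and −0.034 to 0.011 with 1 library left out. SLPI under TBZ was 0.074 with medians equal, 0.060 with quantile normalization and −0.14 to 0.14 with 1 library left out, and −0.27 to 0.011 in the difference of effects. SERPINB1 under DMSO was −0.017 with quantile normalization. With 1 library left out, SERPINB1 in shMLKL cells was −0.048 to 0.034, MLKL there −0.18 to 0.068, PLAU under TBZ −0.018 to 0.096, and SPINK1 in the difference of effects −0.31 to 0.073; this last was 0.012 with a pseudocount of 0.1. PRSS3 in parental cells of the first experiment, where there is no test, was 0.15 with the assembled transcript added. The cause of these turns was not tested. Shifts of the median of all genes of −0.12, 0.10 and −0.16 (shGFP, difference of effects, line under DMSO) limit small differences such as that of SERPINB1.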
